A study of Mus musculus with 8 samples.

Results

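A pyrimidine tract is an unbroken stretch of cytosines and thymines on 1 strand of DNA. The DNA probes described here come from a universal array, and their longest such stretch, read on the printed strand or on its reverse complement, was 8 bases or more. Probes had to end in the commonest 24 bases, and 30 probes with such a tract were left out because their names carry CTCF, ETS1, Myc, E2F1, GATA or RUNX. This gave 2185 of 122086 probes (1.79% of all 122095 sequences), of which 1007 carried the tract on the printed strand, 1178 on the complement and 0 on both. The choice rested on sequence and name, and no measured intensity entered it.

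The arrays were stained with mouse antibodies against UV lesions of DNA, read as Alexa 488 fluorescence, and the design text names k-mer resolution of the antibody signal as the purpose. An antibody against cyclobutane pyrimidine dimers (CPDs) was used at 1:400 on 2 UV-irradiated arrays and 2 arrays without UV. An antibody against 6-4 photoproducts (6-4PPs) was used at 1:80 on 2 UV-irradiated arrays and 2 arrays without UV. All groups share the same printed DNA, and neither the UV dose nor the making of the second strand was described in the labels.

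UV light joins neighbouring pyrimidines of the same strand. A CPD links them through a cyclobutane ring and is known to form most readily between thymines, whereas a 6-4PP links them by a single bond and is known to form mainly where a thymine is followed by a cytosine. Cytosines inside such lesions are known as the places where the C-to-T changes typical of sunlight arise. A tract therefore offers a lesion site at every step between its neighbouring bases, and the order of thymines and cytosines sets which kinds of step it holds.

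Every probe is 60 bases long. The last 33 bases are shared by all members, alternate between pyrimidines and purines and so hold no step on either strand, which leaves the first 27 bases to carry the tract. The shared end is the following.
Shared end: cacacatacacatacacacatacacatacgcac
The most direct view of tract composition came from 8-base tracts set in a common frame, in which no other dipyrimidine step was present on either strand. On the printed strand 251 of the 256 possible tracts were members in the frame (the other 5 were left out by name), and on the complement all 256 were. The sequences below are the first 27 bases, 5′ to 3′, with the tract in capitals, and they show the frame with a tract of thymines, of cytosines and of both in turn. For a tract on the complement the capitals are the purines of the printed strand opposite it, so that AAAAAAAA stands for TTTTTTTT.
Thymines, printed strand: tatgcaTTTTTTTTgtatgtatgcacg
Thymines, complement: cgtatgcAAAAAAAAtatgtatgcacg
Cytosines, printed strand: tatgcaCCCCCCCCgtatgtatgcacg
Cytosines, complement: cgtatgcGGGGGGGGtatgtatgcacg
Alternating, printed strand: tatgcaTCTCTCTCgtatgtatgcacg
Alternating, complement: cgtatgcGAGAGAGAtatgtatgcacg
The description in the frame was chosen after values of these arrays had been seen, so it carries no test. In both frames the tract is preceded by an adenine and followed by a guanine on its own strand.

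The longest tracts and the members with the strongest and weakest UV response are shown next, because the results on length and on surrounding bases turn on them. The first 2 are among the longest tracts on the printed strand, the next 3 the strongest or weakest response with a tract on the printed strand, and the last 5 have their tract on the complement. Strongest and weakest were taken among members whose UV arrays both lay on 1 side of both arrays without UV after centring. A printed-strand member outside that choice had a lower 6-4PP effect, of -2.31.
Longest, printed strand, 1: tatgcaCCCTCCTTCCTTCTgcgcacg
Longest, printed strand, 2: tatgcaCTTCTTCTCCTCTTgcgcacg
Strongest with the CPD antibody, printed strand: tatgcatttcaCTTTCTTTCgcgcacg
Strongest with the 6-4PP antibody, printed strand: gtatgcgcttaCTCCTCTCCgcgcacg
Weakest with the 6-4PP antibody, printed strand: tatgcaCCCCCCCCgtatgtatgcacg
Longest, complement, 1: tatgcAAAAGGGGGAGAGAtgcgcacg
Longest, complement, 2: tatgcAAGAGAGAAAAAGAtgcgcacg
Strongest with the CPD antibody, complement: tatgcattAGGGAGAGtattgcgcacg
Strongest with the 6-4PP antibody, complement: gtatgcGGAGGGGActtgatgcgcacg
Next strongest with the 6-4PP antibody, complement: gtatgcAAAGGAAGccgatcgcgcacg

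Most tracts were at the minimum length. On the printed strand 687 had 8 bases, 190 had 9, 81 had 10, 30 had 11, 11 had 12, 5 had 13 and 3 had 14. On the complement the counts were 770, 227, 108, 44, 19, 5 and 5. The members held a median of 9 dipyrimidine steps over both strands (range 7 to 13), and the median thymine share of the tract was 50% on either strand. Only 4 tracts on the printed strand and 3 on the complement were all thymine, and 1 and 3 were all cytosine. A TT step was missing from 175 tracts on the printed strand and 234 on the complement, and a TC step from 25 and 32. Of the members 325 on the printed strand and 386 on the complement had a lone tract, with no step elsewhere.

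Levels are the deposited adjusted intensities, in scanner units. Of the 2185 members 2177 were printed once, so a level usually comes from 1 spot per array. After UV the replicate arrays ranked the members alike, with Pearson's r across members of 0.948 for the CPD antibody and 0.949 for the 6-4PP antibody, whereas r across members was 0.011 and 0.087 between the arrays without UV. Across members, which are not independent replicates, these values describe the arrays only.

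Arrays of both antibodies with the same number and the same UV condition deviated from their group means together. Across all sequences Pearson's r was 0.707 after UV and 0.765 without UV, and Spearman's rank correlation 0.438 and 0.402. After UV, 32 members differed more than 2-fold between the CPD arrays and 30 between the 6-4PP arrays; 21 did so with both antibodies, and in all 21 the same array number was the brighter. The values of the antibodies are therefore not independent at such spots. The framed tract TCTTTTTT on the printed strand, for example, read 8924 and 46771 with the CPD antibody and 6833 and 57187 with the 6-4PP antibody. In the common frame 7 of the 507 tracts differed more than 2-fold between the CPD arrays after UV and 5 between the 6-4PP arrays, and medians over tracts are given for that reason. Where a level is given as a single number it is the mean of the medians of both UV arrays. For groups of at least 5 framed tracts the SD between the UV arrays was 4.72% of that mean at the median and at most 18.5% with the CPD antibody, and 3.22% and at most 19.8% with the 6-4PP antibody. For the classes of all members it was 5.52% at the median and at most 34.5% (12-base tracts on the printed strand) with the CPD antibody, and 1.44% and at most 9.84% with the 6-4PP antibody.

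The 8 members printed 10 times, all with a complement tract that starts with CTTCC, showed the error of a single spot. After UV the 10 spots of a probe had a median coefficient of variation of 13.6% with the CPD antibody (range 7.93% to 27.9%) and 15.3% with the 6-4PP antibody (range 6.88% to 28.5%). On the arrays without UV the medians were 8.71% and 13.2%, but single bright spots raised the highest values to 244% and 190%. The probe tatgcatGAAGGAAGcgtatatgcacg had 2 bright spots of 10 on the second array without UV, with both antibodies, reaching 48618 against a median spot of 1078 with the CPD antibody.

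Members with the tract on the printed strand were brighter after UV than those with it on the complement. For the CPD antibody the median over members with the tract on the printed strand was 9154 and 8324 on the UV arrays (8739 ± 587, SD, n = 2) and 1285 and 1044 on the arrays without UV, a 7.50-fold rise. With the tract on the complement it was 3194 and 2948 (3071 ± 174) against 1215 and 1041, a 2.72-fold rise. The UV arrays of the groups did not overlap, and the complement members lay below the median of all sequences, 3741 and 3403, while the printed-strand members lay above it.

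The 6-4PP antibody gave the same order. The median with the tract on the printed strand was 14470 and 15002 after UV (14736 ± 376) and 1624 and 1273 without UV, a 10.2-fold rise. On the complement it was 5735 and 5665 (5700 ± 49.2) against 1446 and 1189, a 4.33-fold rise, and all sequences together had 6640 and 6641. The 470 probes without any dipyrimidine step read 1615 ± 10.7 with the CPD antibody and 1953 ± 3.57 with the 6-4PP antibody after UV. On both UV arrays 989 of the 1007 printed-strand members lay above that level with the CPD antibody and all 1007 with the 6-4PP antibody, while 5 and 0 lay below it on both. Of the 1178 complement members 1092 and 1177 did, while 39 and 0 lay below it on both. The median of all sequences, 3572 with the CPD and 6641 with the 6-4PP antibody, also lay above that level. The share of all sequences above it is not given here, so these counts alone do not show a trait of the members.

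Single members spread widely around these medians. With the tract on the printed strand the mean of the UV arrays ran from 1305 to 38945 with the CPD antibody (median 8809) and from 3525 to 58733 with the 6-4PP antibody (median 14845). With the tract on the complement it ran from 1157 to 28042 (median 3128) and from 2160 to 44024 (median 5745). Both UV arrays exceeded both arrays without UV for 994 and 997 of the printed-strand members, and for 1144 and 1164 of the complement members, with the CPD and the 6-4PP antibody. Over all sequences this held for 97.4% and 97.8%, so the members' counts are close to that of the array.

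Single probes were then tested relative to the median of their array, which removes the rise shared by the whole array. In limma's fit over all 122095 sequences, with Benjamini-Hochberg adjustment, 39.5% of sequences rose above the array median change and 40.2% fell below it with the CPD antibody (79.7% in either direction). Of the printed-strand members 787 rose, 120 fell and 100 did neither, and of the complement members 288 rose, 460 fell and 430 did neither. For the 6-4PP antibody 36.4% of all sequences rose and 39.9% fell (76.4% in either direction). There 811 printed-strand members rose, 10 fell and 186 did neither, and 303 complement members rose, 483 fell and 392 did neither.

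These falls are relative. Without centring on the array median 2079 members rose and 0 fell with the CPD antibody (0 at an unadjusted p under 0.05), beside 92% of all sequences that rose and 0.00164% that fell. The 6-4PP antibody gave 2150 that rose and 0 that fell (0 unadjusted), beside 96% and 0.00164% of all sequences. When the UV effect of the 6-4PP antibody was subtracted from that of the CPD antibody, 587 members were past the threshold in limma in favour of CPD and 474 in favour of 6-4PP (33.6% and 18.1% of all sequences, 51.7% in either direction). Without centring the split was 98 and 736 (6.58% and 27.9% of all sequences), so which antibody responded more depends on whether the rise of the whole array is counted.

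Most probe calls were lost in limma under quantile normalization between the arrays. With the CPD antibody 91 printed-strand members then rose and 12 fell, and 29 complement members rose and 29 fell, beside 4.41% and 2.5% of all sequences. The 6-4PP counts were 52 and 0 (15 lower at an unadjusted p under 0.05), and 36 and 9, beside 3.56% and 1.82%. For the difference of the antibodies 0 members were past the threshold (122 in favour of CPD and 193 of 6-4PP unadjusted), as were 0% of all sequences.

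In the common frame the strands could be compared with the same tract and no other step. The median over 251 tracts of the log2 level on the printed strand minus that on the complement was 1.44 ± 0.02 (SD, n = 2) with the CPD antibody after UV, which is 2.70-fold. The printed strand was the brighter on both arrays for 232 tracts and the complement for 7. For the 6-4PP antibody it was 1.54 ± 0.085, or 2.91-fold, and the printed strand was the brighter for 249 tracts and the complement for 0. Without UV the ratios were 1.02-fold and 1.12-fold.

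The strand ratio grew with the number of thymines when read with the CPD antibody. Its median was -0.26 for the tract without thymine, 0.12 with 1 thymine, 0.37 with 2, 1.08 with 3, 1.43 with 4, 1.65 with 5, 1.76 with 6, 1.91 with 7 and 1.69 with 8, on the log2 scale. Read with the 6-4PP antibody it was 0.58 without thymine, 1.12 with 1, 1.29 with 2 and between 1.51 and 1.67 from 3 thymines on. Tracts of few thymines were near the level of probes without a step on both strands with the CPD antibody.

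All-pyrimidine 8-base words were also tested across every probe that holds them, within a longer tract or beside other steps. Each word was given, per array, the median of the sequences that hold it on a given strand, and 237 words had at least 3 sequences on both strands. In each pair of an 8-mer and its reverse complement the word with more pyrimidines was listed, or the alphabetically first when equal. The shares over all pairs are thus themselves oriented towards pyrimidines on the printed strand. Of 32520 such pairs, 54.6% were higher on the listed strand and 18.2% lower with the CPD antibody in limma's fit (72.8% in either direction). With the 6-4PP antibody the shares were 61.8% and 16.6% (78.4%). Of the 237 pyrimidine pairs 214 were higher on the printed strand and 3 lower with the CPD antibody, with a median log2 difference of 1.41. For the 6-4PP antibody 234 were higher and 0 lower (0 at an unadjusted p under 0.05), with a median of 1.26. Quantile normalization between the arrays ended nearly all of these calls in limma. It left 1 pair higher and 0 lower with the CPD antibody (55 and 8 at an unadjusted p under 0.05), beside 0.329% and 0.138% of all pairs, and 2 higher and 0 lower with the 6-4PP antibody (23 and 2 unadjusted), beside 1.45% and 0.683%.

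The 3 words with more CPD signal on the complement were rich in cytosine. They were CCCTCCTC (log2 difference -0.59, limma adjusted p 0.000384), TCTCCCTC (-0.56, adjusted p 0.000238) and TCCCTCTC (-0.30, adjusted p 0.00925). The largest strand differences were those of CTCCTCCT with the CPD antibody (2.56) and of CTCTCTCC with the 6-4PP antibody (2.42). These 5 were chosen after their values were seen. The word TTTTTTTT differed by 1.18 with the CPD antibody and by 0.51 with the 6-4PP antibody, and TCTCTCTC by 2.29 and 1.94.

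Longer tracts tended to be brighter on the printed strand. With the CPD antibody, however, lone tracts of 9 bases were no brighter than those of 8. For lone tracts the median CPD level after UV was 6999 at 8 bases, 6749 at 9, 11059 at 10 and 14526 at 11. These classes held 267, 19, 16 and 10 tracts, and their thymine content was not held fixed. The 6-4PP level was 11144, 14022, 17396 and 20649. Lone tracts of the complement read 2470, 2445, 2623 and 3175 with the CPD antibody, and 3882, 5000, 5207 and 4851 with the 6-4PP antibody. The CPD level of the complement tracts thus stayed between 2445 and 3175 over these lengths.

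The members just inside the threshold of 8 bases were close to those just outside it. Probes whose longest stretch was 7 bases read 7667 with the CPD antibody and 12642 with the 6-4PP antibody on the printed strand (1351 probes), against 8085 and 13635 for 8 bases. On the complement they read 3029 and 5278 (1599 probes), against 2989 and 5287. Lone runs shorter than the rule formed a graded series on the printed strand, from 1930 at 2 bases through 2078, 3136, 4599 and 5194 to 5971 at 7 bases with the CPD antibody. The 6-4PP series ran from 2534 through 3964, 6340, 7386 and 8119 to 9502. Complement runs of the same lengths ran from 1785 to 2339 and from 2189 to 3537.

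Steps outside the tract also went with higher levels. Printed-strand members with further steps read 9441 with the CPD antibody and 16583 with the 6-4PP antibody, against 7411 ± 520 and 11982 ± 562 for lone tracts. Complement members with further steps read 3496 and 7211, against 2544 ± 97.7 and 4082 ± 16.3. The gap exceeded the SD between arrays in all 4 comparisons.

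The longest tracts had 14 bases, 3 on the printed strand and 5 on the complement, and those shown above are the first of each strand in alphabetical order. The tract CTTCTTCTCCTCTT on the printed strand read 18282 and 19031 with the CPD antibody and 26829 and 26342 with the 6-4PP antibody, and CCCTCCTTCCTTCT read 12037 and 11724, and 24791 and 28150. Of the complement tracts, that opposite AAAAGGGGGAGAGA read 2336 and 2461 with the CPD antibody and 7120 and 6936 with the 6-4PP antibody. The tract opposite AAGAGAGAAAAAGA read 3636 and 3314, and 5858 and 4972. The UV effects relative to the array median were 2.12 and 1.67 for the printed tracts with the CPD antibody and -0.69 and 0.04 for the complement tracts on the log2 scale. Limma's adjusted p was 1.64e-05, 0.000112, 0.000791 and 0.840. The third printed tract, TCCTCCCTCCCTTC, read 7329 and 8252 with the CPD antibody, and 34189 and 62009 with the 6-4PP antibody. The other 3 complement tracts read from 2509 to 5095 on single CPD arrays and from 4055 to 10911 on single 6-4PP arrays, so all 5 lay below all 3 printed tracts with either antibody.

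The thymine content of the tract moved the antibodies apart. In the common frame on the printed strand the CPD level rose from 1706 for the tract without thymine through 1946, 2064, 4735, 6775, 9592, 13045 and 15760 to 18725 with 8 thymines, counted in steps of 1 thymine. The 6-4PP level rose from 3570 through 7899, 10035, 11396 and 12360 to 12374 with 5 thymines, then was 11024, 8713 and 7068 with 6, 7 and 8. With the CPD antibody the 28 tracts of 2 thymines were no higher than 2073 as a median on either UV array, near the level of probes without a step. The median over tracts rose from the third thymine on. Tracts without a TT step stayed low whatever their number of thymines, as described below.

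Complement tracts spanned a smaller range with the CPD antibody. The level was 2032 without thymine, lower at 1674 with 1 and 1641 with 2, and then rose through 2014, 2430, 2848, 3726 and 4490, and 5788 with 8. The 6-4PP level was 2384 without thymine, between 3517 and 4080 with 1 to 7 thymines, and 2344 with 8.

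Single tracts at the ends of the series were as follows. TTTTTTTT on the printed strand read 19217 and 18233 with the CPD antibody and 7195 and 6942 with the 6-4PP antibody, and on the complement 5956 and 5621, and 2225 and 2464. CCCCCCCC on the printed strand read 1883 and 1530, and 3227 and 3913, and on the complement 2082 and 1982, and 2283 and 2486. The thymine tract was thus bright with the CPD antibody on both strands. The cytosine tract had a mean CPD level of 1706 on the printed strand and 2032 on the complement, against 1615 for probes without a step. With the 6-4PP antibody it was above the 1953 of those probes on both strands, more so on the printed strand.

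The alternating tract TCTCTCTC on the printed strand read 1808 and 1501 with the CPD antibody, and 8073 and 8629 with the 6-4PP antibody. Its spot without UV read 1248 and 2672 with the CPD antibody, so its UV effect of -1.80 (limma adjusted p 0.00912) rests partly on 1 bright spot. On the complement TCTCTCTC read 1533 and 1647, and 4477 and 4666. With no TT step this tract stayed low with the CPD antibody while it was well above the 1953 of probes without a step with the 6-4PP antibody.

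Lone 8-base tracts of all frames numbered 267 on the printed strand and 296 on the complement. Of these, 251 and 256 were the framed tracts, so their like pattern comes largely from the same probes. For printed-strand tracts the CPD effect relative to the array median was -0.82 with 2 thymines, 0.36 with 3, 0.92 with 4, 1.42 with 5 and 1.80 with 6, on the log2 scale. The 6-4PP effect was 0.43, 0.69, 0.78, 0.80 and 0.59. For complement tracts the CPD effect was -1.15, -1.06, -0.81, -0.54, -0.26 and 0.11 with 1 to 6 thymines, and the 6-4PP effect was -0.98, -0.73, -0.69, -0.62, -0.74 and -0.79.

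Tracts of 9 bases or more followed the thymine share as well. Printed-strand tracts had a CPD level of 2254 for the 5 tracts with at most 25% thymine, 7464 for the 147 with over 25% to 50%, 12148 for the 139 with over 50% to 75% and 20090 for the 29 with more. The 6-4PP level was 12482, 19013, 16443 and 12907. For complement tracts the CPD level was 2159, 2814, 3761 and 5861, and the 6-4PP level 6059, 6609, 6095 and 6600. The 6-4PP level on the complement showed no such order.

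The place of the cytosines decides which steps a tract holds, and the CPD level went with the TT steps. In the common frame on the printed strand the 55 tracts without a TT step read 1997 with the CPD antibody, and the level was 5406 with 1 TT step, 7693 with 2, 10134 with 3, 12500 with 4 and 15450 with 5. On the complement it was 1613, 2222, 2686, 3152, 3730 and 3835. Without a TT step the CPD level stayed low whatever the number of thymines, at 1706, 1946, 1987, 2037 and 2011 with 0 to 4 thymines. The 6-4PP level of the same tracts was 3570, 7899, 9093, 10980 and 8597.

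With the number of thymines held at 4, the level went with the TT steps in different ways with the antibodies. The CPD level was 2011, 5416, 7526 and 8831 with 0, 1, 2 and 3 TT steps. The 6-4PP level was 8597 with 0, 13652 with 1, 12202 with 2 and 7477 with 3. Sorted by TC steps, the 6-4PP level of the same tracts was 9642 with 1, 12803 with 2 and 13572 with 3. It was 7031 for the single tract with 0 and 8351 for the single tract with 4. Over all framed tracts on the printed strand the 6-4PP level was 7047, 9575, 12186, 12751 and 8351 with 0 to 4 TC steps. The CPD level was 8295, 7980, 6910, 4463 and 1654. The values with 4 TC steps are again those of the single tract.

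A few tracts without TT stood far apart between the antibodies. TCCTCCTC on the printed strand, chosen after its values were seen, read 2205 and 2468 with the CPD antibody and 19499 and 21337 with the 6-4PP antibody. Its UV effect relative to the array median was -0.68 with the CPD antibody and 1.37 with the 6-4PP antibody. The tract TTCTTCTT, chosen in the same way, read 14806 and 12771 with the CPD antibody and 20927 and 19619 with the 6-4PP antibody, and so was high with both.

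Framed tracts with every cytosine before every thymine hold no TC step. Their 6-4PP level on the printed strand was 4353 with 1 thymine, 7745 with 3, 7031 with 4, 7970 with 5, 6885 with 6 and 7047 with 7. The exception was CCCCCCTT, at 14047 and 18852 (16450 ± 3397). Cytosine blocks and thymine blocks were also compared in the opposite order. With the thymines first the CPD level on the printed strand was higher by a median of 0.31 ± 0.18 (log2) over 7 pairs, in 5 pairs on both arrays, and lower in 1. On the complement it was 0.24 ± 0.028, higher in 4 pairs and lower in 1.

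The order of the blocks had no common direction with the 6-4PP antibody. The median difference was 0.064 ± 0.017 on the printed strand and 0.032 ± 0.071 on the complement. Single pairs went either way. TCCCCCCC exceeded CCCCCCCT by 1.07 and 1.03 on the printed strand, and TTCCCCCC was below CCCCCCTT, by -0.42 and -0.62. With the CPD antibody TTTCCCCC exceeded CCCCCTTT by 0.80 and 0.89.

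Where in the tract a thymine stood also went with the level. With places counted from the 5′ end of the tract, replacing a cytosine by a thymine was accompanied by a CPD change of 0.56, 0.98, 0.49, 0.52, 0.47, 0.46, 0.60 and 0.30 (log2) at places 1 to 8 on the printed strand. On the complement it was 0.32, 0.43, 0.21, 0.19, 0.21, 0.18, 0.23 and 0.18. The second place was the highest on both strands. The 6-4PP changes on the printed strand were 0.21, 0.26, -0.11, -0.05, -0.06, -0.06, 0.29 and -0.04.

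The single TT step gave the same picture. Framed tracts with 1 TT step on the printed strand read 9012 with the CPD antibody when it was at the first 2 bases (13 tracts), against 5001, 4542, 5238, 5326, 5056 and 5898 at the later places. Complement values were 2822 and then 2080, 2074, 2222, 2098, 1975 and 2389. For tracts with 1 TC step on the printed strand the 6-4PP level was 12126 and 13328 at the first places, then 10864, 10042, 8829, 7324 and 8423. By end bases, tracts that began and ended in cytosine read 5276 with the CPD antibody and those that began and ended in thymine 8859, and the 6-4PP levels were 10566 and 12237.

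A least-squares fit per array over all members, with the 4 kinds of step in the tract on each strand, gave the change in log2 level per added step. On the printed strand a TT step added 0.52 and 0.50 on the CPD arrays after UV, a TC step 0.069 and 0.076, a CT step 0.030 and 0.020 and a CC step 0.0076 and 0.0060. On the CPD arrays without UV a CT step added 0.036 and 0.033 and a CC step 0.015 and 0.0079. The CPD coefficients of CT and CC were thus no larger after UV than without it. Those of TT without UV were 0.0026 and 0.0059, and those of TC -0.0027 and -0.023. With the 6-4PP antibody a TC step added 0.26 and 0.25, a CT step 0.17 and 0.17, a CC step 0.13 and 0.13 and a TT step 0.095 and 0.091. TT thus led with the CPD antibody and TC with the 6-4PP antibody, and the replicate arrays differed by less than the gaps between them.

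On the complement a TT step added 0.23 and 0.21 with the CPD antibody, and the other steps were at or below 0. With the 6-4PP antibody a TC step added 0.10 and 0.090, a CC step 0.056 and 0.048, a CT step 0.022 and 0.015 and a TT step 0.020 and 0.0075. The steps of the tract accounted for 52.7% ± 0.19 of the variance among printed-strand members with the CPD antibody and 11.7% with the 6-4PP antibody. Among complement members they accounted for 17.9% and 1.11%, and on the single arrays without UV for 0.10% to 1.38%, the highest of which exceeded the complement's share with the 6-4PP antibody after UV.

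The tests over 65416 8-mers showed the same words in all their surroundings. With the CPD antibody 46.3% of 8-mers rose relative to the array median and 43.5% fell (89.8% in either direction), and with the 6-4PP antibody 50.4% rose and 36.1% fell (86.6%; limma, Benjamini-Hochberg adjustment). Of the 237 pyrimidine words on the printed strand 201 rose and 32 fell with the CPD antibody, and 235 rose and 0 fell (0 at an unadjusted p under 0.05) with the 6-4PP antibody. Of the 256 words on the complement 53 rose and 137 fell with the CPD antibody, and 53 rose and 96 fell with the 6-4PP antibody. Without centring every one of them rose, as did 100% of all 8-mers. Under quantile normalization 71 printed-strand words rose and 13 fell with the CPD antibody, and 26 complement words rose and 36 fell, beside 22.3% and 18.4% of 8-mers. The 6-4PP counts were 55 and 1, and 48 and 4, beside 23.3% and 10.1%.

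The words with the largest CPD effect on the printed strand were thymines with at most 1 cytosine. TTTCTTTT read 22766 and 21267 after UV over 5 sequences (log2 effect 2.64, limma adjusted p 3.00e-08), and TTTTTTTT read 24765 and 20552 over 6 (2.64, adjusted p 3.00e-08). TTTTCTTT followed at 2.60 and CTTTTTTT at 2.52. The smallest effects were those of CCCTCCCC (-1.003), CCTCTCCC (-0.84), CCCTCTCC (-0.79) and CTCTCCTC (-0.77), none of which holds a TT step.

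Moving the single cytosine through a thymine tract left the CPD effect high at every place. The printed-strand effects were 2.52, 1.99, 2.36, 2.64, 2.60, 2.41, 2.29 and 2.41 with the cytosine at places 1 to 8. The lowest was that of TCTTTTTT. The 6-4PP effects of the same words were 0.56, 0.50, 1.25, 1.02, 1.06, 0.70, 0.56 and 0.43, highest with the cytosine in the third to the fifth place. The CPD effects on the complement were 0.72, 0.11, 0.77, 0.43, 0.77, 0.79, 0.77 and 0.99, and TCTTTTTT was again the lowest.

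A single thymine moved through a cytosine tract was measured at every place on the complement, where each such word had 8 sequences or more. The CPD effects lay between -1.10 and -0.72. The 6-4PP effects were -0.18, 0.21, -0.26, -0.35, -0.30, -0.34, -0.88 and -0.95 with the thymine at places 1 to 8. The lowest were CCCCCCTC, at 3923 and 3761, and CCCCCCCT, at 3771 and 3749, and the highest was CTCCCCCC, at 7913 and 7729. On the printed strand CCCTCCCC (4 sequences) and CCCCTCCC (6 sequences) were measured. Their 6-4PP effects were 1.06 and 0.96, and their CPD effects -1.003 and -0.36. Whether the signs are below 0 depends on the centring.

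The words with the largest 6-4PP effect mixed thymines and cytosines. On the printed strand CTCCTCCT read 31048 and 29010 (2.11, limma adjusted p 4.30e-07), followed by TTCTCCTC (1.91), TTCTCCTT (1.87) and CTCCCCTT (1.84). The smallest effects past the threshold were those of TTTTTCCC (0.22), CCTTTTTT (0.30), CCCTTTCT (0.30) and TTTTCCCT (0.32). The 2 words not past it are not listed, and the smallest effect of all was 0.080. On the complement CCTTTCCC (0.80), CTCTTTTT (0.75), TCCCCCTT (0.71) and CCCTCCTC (0.67) were the highest and CCCCCCCT (-0.95), CTCTTTTC (-0.91), CCCCCCTC (-0.88) and CCTCTCTC (-0.84) the lowest. With the CPD antibody the highest complement words were TTTTTTTT (1.46), TTTTTTTC (0.99), TTTCCCCT (0.90) and TTTTTTCC (0.84), and the lowest CCTCTCTC (-1.23) and CCCCTCCT (-1.21).

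The difference between the UV effects of the antibodies, CPD minus 6-4PP, was past the threshold in favour of CPD for 40.4% of 8-mers and in favour of 6-4PP for 32.3% in limma's fit (72.7% either way). On the printed strand 97 pyrimidine words were in favour of CPD and 83 of 6-4PP, and on the complement 62 and 96. Without centring the splits were 18 and 122, and 5 and 175, beside 7.72% and 52% of all 8-mers. Quantile normalization left 11 and 17, and 0 and 21 (7 and 60 at an unadjusted p under 0.05 in limma), beside 3.86% and 7.18%. The extremes on the printed strand were TTTTTTTT (2.30) and TTTTTCCC (1.98) in favour of CPD and TCCTCTCC (-2.22) and TCTCCCTC (-2.17) in favour of 6-4PP. TCCTCTCC read 2833 and 2573 with the CPD antibody and 24751 and 23799 with the 6-4PP antibody. On the complement they were TTTTTTTT (1.63) and CCTCCCTC (-1.51).

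The same tract read differently in other surroundings. The word TCTCTCTC had a CPD effect of 1.37 over its 7 sequences on the printed strand (limma adjusted p 3.05e-07), with levels of 9816 and 8809, whereas the framed sequence read 1808 and 1501. The framed sequence has no other step, while the median sequence with the word can hold further steps. CTCTCTCT was lower, with a CPD effect of -0.32 (adjusted p 0.00312) and levels of 2857 and 2943 over 6 sequences.

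Of the thymine and cytosine tracts outside the frame some read close to the framed tract and others far above it. Among complement tracts the 8 thymines of tatgcactatAAAAAAAAttgcgcacg read 19120 and 18336 with the CPD antibody, against 5956 and 5621 in the frame, whereas those of gtatgcgaggtAAAAAAAAtgcgcacg read 6760 and 6160. The printed-strand probes cgtatgcaatcgTTTTTTTTgcgcacg, at 25737 and 15627, and tatgcgaTTTTTTTTgcgatgcgcacg, at 19693 and 15510, were above the 19217 of the frame on the first array and below its 18233 on the second. The 9 thymines of gtatgcaatcgTTTTTTTTTgcgcacg on the printed strand read 32080 and 30654 with the CPD antibody and 8214 and 7610 with the 6-4PP antibody. The 9 cytosines opposite tatgcGGGGGGGGGcatcgtgcgcacg read 2301 and 2374 with the CPD antibody but 15469 and 19304 with the 6-4PP antibody, far above the 2283 and 2486 of the framed cytosine tract on that strand, and the 8 opposite atgcatGGGGGGGGttcaatgcgcacg read 7931 and 8227, and 9869 and 9713. These 7 probes hold 9 or 10 steps in all, against 7 in the frame, and their step counts did not separate those close to the frame from the others.

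The members with the strongest response carried steps beside the tract, as did 682 of the 1007 printed-strand members and 792 of the 1178 complement members. This is thus not particular to them. The probe with the tract CTTTCTTTC read 36004 and 41885 with the CPD antibody after UV against 1359 and 880 without UV (log2 effect 3.50, limma adjusted p 2.47e-05), and 31290 and 35773 with the 6-4PP antibody. The probe with CTCCTCTCC read 49100 and 53641 with the 6-4PP antibody (2.998, adjusted p 3.19e-05) and 11747 and 12533 with the CPD antibody. In the other orientation the tract opposite AGGGAGAG read 27210 and 24156 with the CPD antibody (2.87, adjusted p 1.56e-05), and that probe holds 2 steps on the printed strand. The tract opposite AAAGGAAG read 3463 and 4224 with the CPD antibody but 23148 and 27563 with the 6-4PP antibody. The strongest complement member with the 6-4PP antibody, opposite GGAGGGGA, read 26309 and 53680, so its UV arrays lay far apart.

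At the other end some of the smallest effects rested on single bright spots without UV. The probe gtatgcGGGAGAGAcacaccgcgcacg had a 6-4PP effect of -4.31 (limma adjusted p 0.0327) and read 2980 and 63867 without UV, and 3449 and 3319 after UV. The probe gtatgcGGAGGAGAGcatatgcgcacg had a CPD effect of -1.98 and read 1223 and 2576 without UV, and 1396 and 1427 after UV. For tatgcaCCCCCCCCgtatgtatgcacg the spots without UV were even, at 1655 and 1236, and the 6-4PP effect was -0.97 (adjusted p 0.000533).

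Where the tract began in the probe was less marked than its strand. With the first base of the tract counted from the 5′ end of the probe, printed-strand members read 9014 with the CPD antibody at base 6, 8716 at base 8, 8966 at 9, 9097 at 10, 8554 at 11, 13063 at 12 and 11507 at 13. The 6-4PP levels were 16414, 16042, 16226, 16990, 14005, 17440 and 18971. Base 7 is where the frame places its tract, and those 383 members read 7662 and 12522 with fewer steps (median 7). On the complement the levels at bases 6 to 12 ran from 2656 to 3576 with the CPD antibody and from 4175 to 7591 with the 6-4PP antibody. Both lowest values are those of base 8, where the complement frame places its tract (398 members, median 7 steps), and the 6-4PP levels at the other bases ran from 6409 to 7591.

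Last, the members were compared with probes that hold as many TT steps and as many steps in all, summed over both strands, but in runs of at most 4 bases. With the CPD antibody 804 printed-strand members exceeded 11230 matched probes by 0.30 and 0.24 (log2) on the UV arrays, and 904 complement members differed from their 11102 matched probes by -1.12 and -1.11. The other members were not in this comparison. The 6-4PP differences were 0.023 and 0.079 for printed-strand members, and -1.23 and -1.23 for complement members. On the arrays without UV the differences lay between -0.07 and 0.10.

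With the steps of each strand matched apart, members of either strand were lower than the short-run probes. Printed-strand members differed by -0.59 and -0.65 with the CPD antibody and by -0.58 and -0.66 with the 6-4PP antibody, for 341 members against 225 probes. Complement members differed by -0.27 and -0.24, and by -0.50 and -0.58, for 420 members against 227 probes. The sign for the printed strand with the CPD antibody therefore depended on how the steps were matched, while the complement members were lower under both ways of matching.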

How the data were processed

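Per the file headers, the deposited files hold Alexa 488 intensity for 180880 spots per array, on a linear scale. The adjusted intensity used here equals the scanner intensity, whose ceiling is 65535, scaled by the median of the array over that of the spot's neighbourhood, as tested on the values. No background was subtracted, and the software was not given in the sources used here. Sequences were given for 175866 spots, and the 5014 others were left out. Saturated spots numbered 89 to 288 per array, at most 3 of them of members.

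Log2 values were averaged over the spots of a sequence, and the array median was subtracted. UV and non-UV arrays, and the difference between the antibodies, were fitted with limma 3.58.1 (lmFit, eBayes; R 4.3.3) in 1 fit over 8 arrays and all 122095 sequences, over 65416 8-mers present in at least 3 sequences, or over 32520 pairs of an 8-mer and its reverse complement. The Benjamini-Hochberg method adjusted the p-values, and 0.05 was the threshold. Medians of tract classes, step coefficients and differences from step-matched probes summarise members, so only their values are given, and their fits serve to compare settings. The fits were tested on simulated data. Python 3.11.15 with numpy 2.4.6 and pandas 2.3.3 was used for the rest. The labels do not say whether replicate arrays were irradiated separately, so p-values measure the spread between arrays only.

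The members and lists were chosen with earlier results of these data known. Named words were TTTTTTTT, CCCCCCCC, TCTCTCTC, CTCTCTCT, thymines with 1 cytosine and cytosines with 1 thymine, where measured, and per antibody and strand the 4 largest and 4 smallest UV effects past the threshold and the 4 largest differences each way. Named probes were, per strand, 2 of the longest tracts (in alphabetical order), and per antibody the 2 largest and the smallest effect with both UV arrays on 1 side of both arrays without UV after centring. The common frame, the place effects and the order of blocks were chosen after values had been seen and carry no test. Replicate numbers paired the arrays of the antibodies within a UV condition, and not UV with non-UV arrays. Pearson's r was 0.707 and 0.765 across 122095 sequences, and Spearman's rank correlation 0.438 and 0.402. Alternatives were the unadjusted intensity, no centring, quantile normalization, an offset of 100, leaving out saturated spots or the dimmest 25 percent of sequences, means for medians, other eBayes options, arrays of 1 antibody alone, a replicate block, another matching and each array left out.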

Additional observations from a re-analysis of the deposited data

Results flagged for a closer look

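Lone 8-base tracts with 2 thymines on the printed strand moved in opposite directions with the antibodies. Their UV effect relative to the array median was -0.82 with the CPD antibody and 0.43 with the 6-4PP antibody, a difference of -1.25 on the log2 scale in limma's interaction term. The levels after UV were 2046 and 9853. The class mixed tracts with and without a TT step. Over all framed tracts on the printed strand those without a TT step read lower with the CPD antibody, so the direction need not hold for each tract.

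Lone 8-base tracts with 6 thymines on the complement did so the other way. Their UV effect was 0.11 with the CPD antibody and -0.79 with the 6-4PP antibody, a difference of 0.90, while the levels after UV were nearly equal, at 3726 and 3725. Both directions are relative to the median of the array, which differs between the antibodies.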

How the results depend on the processing

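Quantile normalization between arrays changed the most. Members past the threshold numbered 161 with the CPD antibody (1655 in the centred fit), 97 with the 6-4PP antibody (1607) and 0 for the difference of the antibodies (1061; limma at an unadjusted p under 0.05: 122 higher and 193 lower). Pyrimidine words past it numbered 146 (423), 108 (384) and 49 (338), and strand pairs 1 (217) and 2 (234). Under it the printed-strand class effect was 0.38 with the CPD antibody and 0.36 with the 6-4PP antibody, and the complement class -0.015 and, turned, 0.19. The step coefficients were 0.045 (TC) and -0.065 (CT, now past the threshold) on the printed strand and -0.014 (CT, complement) with the CPD antibody, and on the complement 0.023 (TT), 0.042 (TC) and 0.0026 (CC) with the 6-4PP antibody. The CPD difference from step-matched probes was -0.12 for all, -0.046 (turned) for printed-strand and -0.37 for complement members. The 6-4PP effects of TTTTTCCC (-0.069) and TTTTCCCT (-0.22) on the printed strand and CCTCTCTC (0.036) on the complement turned.

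Without centring the complement classes rose by 1.45 and 2.12, and the CPD differences from step-matched probes, -0.24 for all and 0.24 for printed-strand members, fell short of the threshold. The signs of these turned: CPD, printed strand, CCCTCCCC (0.65), CCTCTCCC (0.81), CCCTCTCC (0.86) and CTCTCCTC (0.88), and complement, CCTCTCTC (0.42), CCCCTCCT (0.44), CCCTCCCC (0.55) and CTCTCTCC (0.56). With the 6-4PP antibody, on the complement, they were CCCCCCCT (1.33), CTCTTTTC (1.37), CCCCCCTC (1.40) and CCTCTCTC (1.44). The probes were tatgcaCCCCCCCCgtatgtatgcacg (6-4PP, 1.31), tatgcAAAAGGGGGAGAGAtgcgcacg (CPD, 0.96) and tatgcAAGAGAGAAAAAGAtgcgcacg (6-4PP, 1.80). Centring subtracts the rise of the whole array, which by construction sets these signs.

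With saturated spots left out the CPD coefficient of CT on the printed strand turned to 0.0054, and the 6-4PP coefficient of TT on the complement was 0.017. With means the CPD complement class was -0.068 and the 6-4PP difference of printed-strand members from step-matched probes 0.048. With the unadjusted intensity the CPD coefficients on the complement were -0.034 (TC) and -0.029 (CC), both now past the threshold, the 6-4PP coefficient of TT there 0.0022, the same 6-4PP difference 0.094, and the probes tatgcAAAAGGGGGAGAGAtgcgcacg (6-4PP) and tatgcAAGAGAGAAAAAGAtgcgcacg (CPD) were at -0.20 and -0.0058. With the dimmest 25 percent left out the 6-4PP effect of CCCCCCTC on the complement was 0.58. With steps matched on each strand apart the printed-strand differences were -0.62 (CPD) and -0.60 (6-4PP). The causes of these changes were not tested.

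Leaving out each array in turn, with the lone array taken to vary like the others, gave 1486 to 1706, 1446 to 1591 and 844 to 1058 members past the threshold. The 6-4PP difference of printed-strand members ranged from -0.049 to 0.025, turning to 0.025 without the first non-UV 6-4PP array and 0.016 without the first UV 6-4PP array, the 6-4PP coefficient of TT on the complement from 0.017 to 0.029, and the CPD effect of tatgcAAGAGAGAAAAAGAtgcgcacg ranged from -0.047, without the first CPD array without UV, to 0.13. With a replicate block over all arrays 1689, 1643 and 1098 members were past it, and with the block within UV and non-UV arrays, added after seeing the data, 1722, 1693 and 1308. The block moved no other count of calls by over 1.5 times. Counting tracts on both strands under the longer had nothing to run, with 0 such sequences. For the main comparisons 565 values under other settings kept direction and side of the threshold, 10 reversed, 8 counts moved by over 1.5 times, 16 fell short of the threshold and 4 passed it.

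The number of arrays, 2 a group, limits the precision, and most members rest on 1 spot an array. On the arrays without UV the members' order did not repeat. How the complement was made is not described in the labels, so strand and synthesis cannot be told apart. The framed tracts hold 7 steps, the other members up to 13, and steps outside the tract were not held fixed in the comparisons of all members.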
